A study of Homo sapiens with 4 samples.

Results

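Mammalian cells carry alternative forms of several mitochondrial proteins, and HIF1α, the oxygen-regulated transcription factor, is known to act on some of them. The genes described here were *COX4I1* and *COX4I2*, which encode the isoforms of subunit 4 of cytochrome c oxidase (complex IV), *NDUFA4L2*, a paralog of the complex IV subunit gene *NDUFA4*, *LONP1*, which encodes a protease of the mitochondrial matrix, *HIGD1A* and *HIGD2A*, small proteins of the HIG1 domain family, *FAM162A*, a mitochondrial protein linked to hypoxic cell death, and *AK4*, a mitochondrial adenylate kinase. These 8 genes were chosen by name from 55859 genes that were found in both the expression tables and the GRCh37 annotation. HIF1α peaks were assigned to them when they lay in the gene or within 10 kb of it, which gave 4 of the 1689 peaks of ChIP-seq replicate 1 and 12 of the 16953 peaks of replicate 2.

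As background, complex IV passes electrons from cytochrome c to oxygen, and its subunit 4 takes part in adjusting the enzyme to the energy state of the cell. In other mammalian cells, HIF1 has been linked to a replacement of the COX4I1 protein by COX4I2, in which LONP1 degrades the former. *NDUFA4L2*, *HIGD1A*, *FAM162A* and *AK4* are also known as hypoxia-responsive genes, and *NDUFA4L2* is abundant in clear cell renal carcinoma.

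HK2 cells are an immortalized line derived from the proximal tubule of a human kidney. FG-4592, also named roxadustat, blocks the prolyl hydroxylases, whose action on HIFα in the presence of oxygen leads to its degradation. The data were 2 RNA-seq libraries and 2 HIF1α ChIP-seq peak lists, all from HK2 cells given 50 μM FG-4592 (6 h in the methods of the study). The labels do not say whether replicates came from separate cultures. Untreated cells were not analysed here, so each value is a level under FG-4592, no fold change over untreated cells was computed, and a switch between isoforms could not be measured as a change. Levels are FPKM, that is sequenced fragments per length of transcript and per mapped fragments of the library, and the values of all transcripts of a gene were added. Depth is known only as coverage times transcript length, which came to 4442 and 4202 Mb in RNA-seq replicates 1 and 2.

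The cell line label was compared with marker genes. Of 9 markers of the proximal tubule, 2 reached an FPKM of 1 in both libraries, *GGT1* (62.3 and 58.5) and *SLC5A2* (2.59 and 1.70). The summed FPKM of the 9 markers was 65.1 and 60.4 in the libraries, nearly all of it from *GGT1*. The endocytic receptor gene *LRP2* and the transcription factor gene *HNF4A* were listed at 0. Of 7 broader renal epithelial markers, 5 reached an FPKM of 1, with sums of 422 and 418. *KRT8* was the highest at 166 and 162, and the renal transcription factor gene *PAX8* stood at 121 and 114. The 2 genes below that level were *CDH1*, for the epithelial cadherin (0.211 and 0.379), and *PAX2* (0.287 and 0.359). Among 8 markers of endothelial, immune, podocyte, other tubular and stromal cells, 1 reached that level, *COL1A1* with 38.7 in each library, and it made up most of the sums of 39.2 and 39.2. *PTPRC*, *NPHS1*, *UMOD*, *SLC12A1* and *AQP2* were listed at 0, as was *PECAM1*, a further gene of that list, which was found in the expression tables alone. Most of the renal epithelial markers were thus present, while *CDH1* and *PAX2* were low and most of the defining transcripts of a differentiated proximal tubule were at or near 0.

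HIF1 binds DNA at hypoxia response elements, whose core is ACGTG or GCGTG. This core was sought on either strand, and a CACGTG, which reads as ACGTG on both strands, was counted once. Stretches of the promoter peaks of *FAM162A*, *AK4* and *LONP1*, the members with a peak in each ChIP-seq replicate, are shown first, together with the promoter of *HIGD1A*, which carried cores without a peak nearby. They were read from GRCh37 along the strand of the gene, and capitals mark the cores. The *FAM162A* stretch is the part outside exons that the peaks of both replicates cover (chr3:122102797-122103007, + strand), and it ends just before the first annotated start site. The long *AK4* stretch is likewise the shared part outside exons (chr1:65614236-65614534, + strand) and lies between exons of the gene. The short *AK4* stretch surrounds the core nearest the centre of the other replicate 1 peak and is exonic (chr1:65613586-65613614, + strand). The *LONP1* stretch surrounds the core nearest the centre of its replicate 1 peak (chr19:5720189-5720217, − strand) and lies outside annotated exons. The *HIGD1A* stretch lies upstream of its RefSeq start site and outside exons (chr3:42846011-42846232, − strand). A start site of *ACKR2*, on the opposite strand and listed at 0 in both libraries, lay 262 bp from a start site of *HIGD1A*.
FAM162A: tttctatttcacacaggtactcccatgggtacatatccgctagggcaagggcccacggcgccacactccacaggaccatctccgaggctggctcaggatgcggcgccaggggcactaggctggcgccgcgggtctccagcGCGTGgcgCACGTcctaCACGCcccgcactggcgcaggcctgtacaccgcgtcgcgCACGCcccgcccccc
AK4 between exons: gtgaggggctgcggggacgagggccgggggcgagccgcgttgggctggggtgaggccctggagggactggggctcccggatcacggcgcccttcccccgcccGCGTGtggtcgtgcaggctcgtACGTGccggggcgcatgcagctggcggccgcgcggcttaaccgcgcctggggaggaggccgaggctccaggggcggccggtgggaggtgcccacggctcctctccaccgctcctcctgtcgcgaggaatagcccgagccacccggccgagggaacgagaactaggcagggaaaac
AK4 exon: aggccgcccggtGCGTGgggcggcggggg
LONP1: gcgccgggcgtCACGTGcgtttcgcggcg
HIGD1A: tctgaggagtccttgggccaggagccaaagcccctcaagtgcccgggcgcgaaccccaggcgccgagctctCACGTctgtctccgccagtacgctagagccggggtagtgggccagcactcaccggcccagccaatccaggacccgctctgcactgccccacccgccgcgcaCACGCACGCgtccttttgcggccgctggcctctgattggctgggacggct
The *FAM162A* stretch held 4 cores within 211 bases, the longer *AK4* stretch 2 cores within 299 bases and the *HIGD1A* stretch 3 cores within 222 bases, the last pair of which overlap by a base.

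For the level of transcripts, 6 of the 8 members had an FPKM of at least 1 in both libraries, a level that 58.8% of 19658 protein-coding genes reached. *COX4I1*, *AK4*, *LONP1*, *FAM162A*, *HIGD2A* and *HIGD1A* were expressed, in this order of mean summed FPKM, whereas *NDUFA4L2* was low and *COX4I2* was listed at 0. By TPM, which scales every library to the same total, in place of FPKM, 7 members reached 1, because *NDUFA4L2* then passed. A bulk library averages over its cells, so few cells with much of a transcript and many cells with little of it cannot be told apart.

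**Figure D1:**
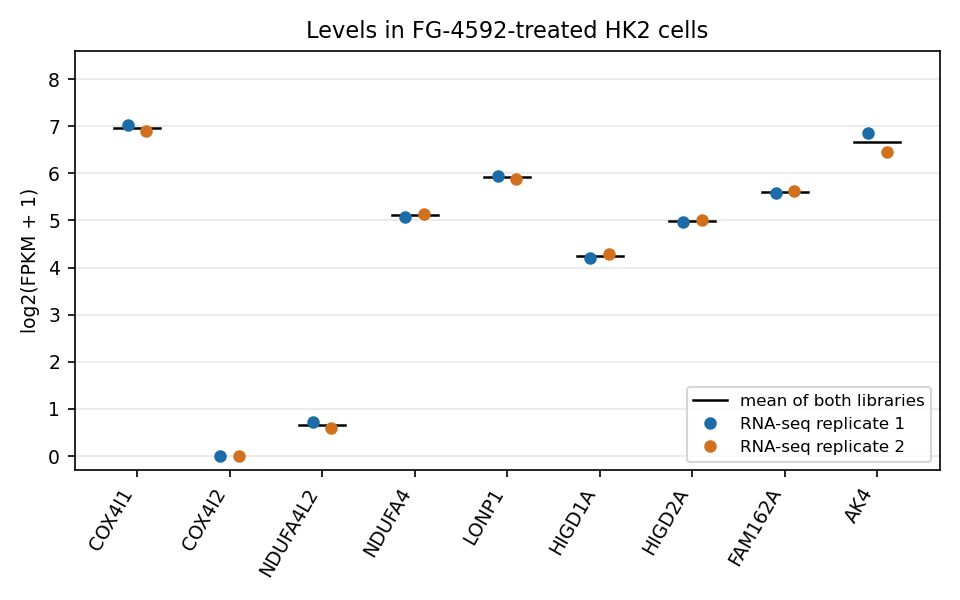
Level of each member and of *NDUFA4* in FG-4592-treated HK2 cells, as log2(FPKM + 1). Each point is an RNA-seq library, and the line is the mean of both, not drawn for *COX4I2*, which is listed at 0. The libraries lie close together for each gene, with the widest gap for *AK4* (FPKM of 115 and 86.9), and *COX4I2* and *NDUFA4L2* lie far below the others.

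*COX4I1* had the highest summed FPKM of the members. Its FPKM was 128 and 118 in replicates 1 and 2 (123 ± 7.20, SD, n = 2), rank 382 among 55859 genes. Of its 18 annotated transcripts, the protein-coding ENST00000253452 took 69.8% and 69.7% of the gene's FPKM. *COX4I2*, the isoform gene best known from lung, was listed at 0 in both libraries, with a coverage of 0 over each of its 5 exon blocks, and thus made up 0% of the summed FPKM of the pair of isoforms in each library. It was among 3820 protein-coding genes listed at 0 in both libraries. A listed 0 need not be a measured absence in these tables, since all 37 genes of the mitochondrial chromosome, among them the catalytic subunits of complex IV, were also listed at 0. The 3 genes fixed as known regulators of *COX4I2* were expressed. *CHCHD2*, which encodes a protein of the mitochondrial intermembrane space that can also act on transcription, had an FPKM of 264 and 262. *RBPJ*, the DNA-binding partner of Notch, stood at 22.7 and 14.0, and *CXXC5*, a zinc finger gene, at 50.0 and 25.2. In summed FPKM, the last 2 genes differed between the libraries by more than most genes, both being lower in replicate 2. Their absolute log2 ratios of the libraries were 0.69 and 0.99. The median absolute log2 ratio was 0.11 and the 95th percentile 0.48 among 6159 protein-coding genes averaging an FPKM of 10 or more. *RBPJ* and *CXXC5* have 31 and 16 annotated transcripts, and whether their coverage differed as well was not tested.

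Several other subunits of complex IV also have a tissue-restricted paralog beside the widely used gene. Of 19 nuclear genes listed for subunits and paralogs, 13 had an FPKM of at least 1 in both libraries, with medians of 32.8 and 34.0 over the list. *COX6A1* was the highest (238 and 222), followed by *COX8A* (144 and 139) and then *COX4I1*. The paralogs known from muscle were low. *COX6A2* had an FPKM of 2.77 and 2.47, which was lower than *COX6A1* by factors of 85.8 and 90.0. *COX7A1* had 0.322 and 0.265, against 54.3 and 55.2 for *COX7A2*. Of the paralogs known from testis, *COX6B2* had 0.198 and 0.381, *COX7B2* was listed at 0, and *COX8C* was listed at 0 in replicate 1 and had 0.0515 in replicate 2. A wide gap lay between *COX7A2L*, the lowest of the widely used genes with 27.9 and 26.9, and *COX6A2*, the highest of the tissue-restricted paralogs.

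**Figure D2:**
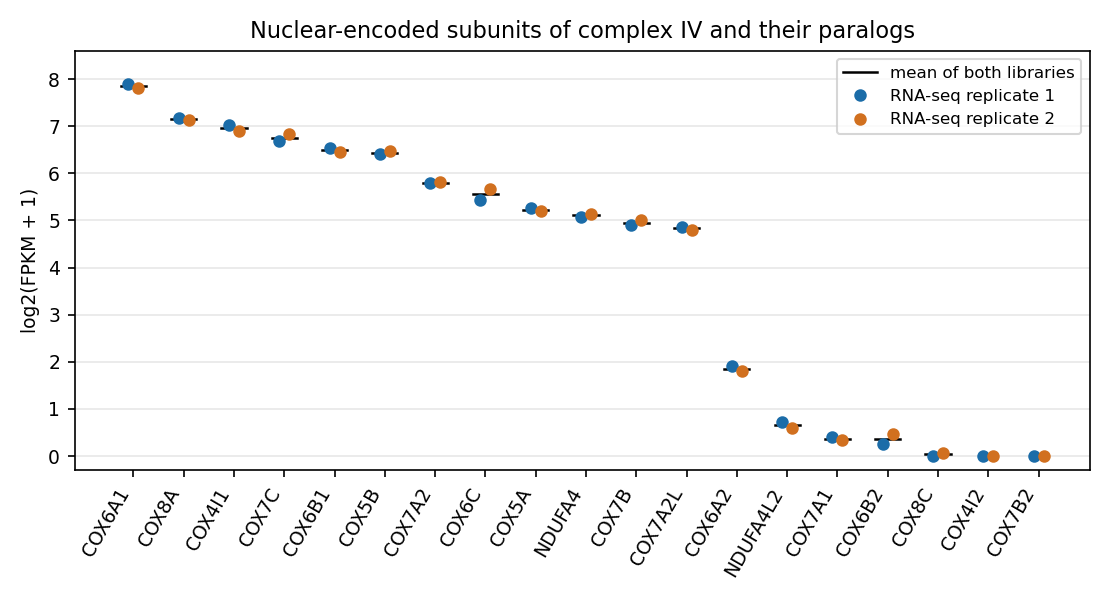
Level of the nuclear genes for complex IV subunits and their paralogs, as log2(FPKM + 1), in descending order of mean FPKM. Points are the RNA-seq libraries and lines their mean. The points drop from *COX7A2L* (27.9 and 26.9) to *COX6A2* (2.77 and 2.47), and the remaining paralogs lie lower still.

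The FPKM of *NDUFA4L2* was 0.654 and 0.520 (0.587 ± 0.0946, SD, n = 2), rank 14586. *NDUFA4*, now counted as a subunit of complex IV, had 32.8 and 34.0. The log2 ratio of *NDUFA4L2* to *NDUFA4*, with a pseudocount of 0.1, was -5.45 and -5.78 (mean -5.62, SD 0.24). Without a pseudocount, *NDUFA4* was higher by factors of 50.2 and 65.4. The mean log2 ratio was -6.28 on the largest transcript of each gene and -4.44 with a pseudocount of 1, with *NDUFA4* the higher under each setting. Over its 6 exon blocks, mean coverage was between 0 and 2.05 reads per base in the first library and between 0.00459 and 1.18 in the second. The leading transcript was ENST00000554503 in replicate 1, with 64.7% of the gene's FPKM, and ENST00000557276, which has no defined coding region, in replicate 2, with 34.8%.

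*LONP1* had an FPKM of 60.8 and 57.9 (59.4 ± 2.09, SD, n = 2), rank 961. It had the highest summed FPKM of 16 mitochondrial protease genes, all of which reached an FPKM of 1 in both libraries, with a median of 24.2 and 24.3. *PMPCA*, for a subunit of the peptidase that removes import signals, came next with 41.5 and 36.9, and *CLPP*, for the proteolytic subunit of the matrix ClpXP protease, had 31.8 and 34.1. *CLPX*, which unfolds substrates for *CLPP*, was lower at 7.06 and 7.60. Of 15 *LONP1* transcripts, ENST00000360614 (3236 nucleotides) led in both libraries with 38.9% and 39.9%, and protein-coding transcripts together made up 78.3% and 84.1%.

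*HIGD1A* had an FPKM of 17.5 and 18.6 (18.0 ± 0.728, SD, n = 2) and *HIGD2A* 30.1 and 31.3 (30.7 ± 0.864, SD, n = 2), ranks 3838 and 2136. HIGD1A associates with complex IV, and HIGD2A acts in its assembly and in that of the respiratory supercomplexes. Their log2 ratio with a pseudocount of 0.1 was -0.78 and -0.75 (mean -0.76, SD 0.02). Without a pseudocount, *HIGD2A* was the higher by factors of 1.72 and 1.69. The direction held in each library, but the size depended on which transcripts were counted: on the largest transcript alone the mean log2 ratio was -1.35, since *HIGD2A* has a single transcript and the leading transcript of *HIGD1A* held 69.9% and 62.8% of its FPKM. The other 3 genes of the HIG1 family, *HIGD1B*, *HIGD1C* and *HIGD2B*, were listed at 0. All 27 listed assembly genes of complex IV, *HIGD1A* and *HIGD2A* among them, reached an FPKM of 1, with a median of 17.5 and 17.7. *COA3*, which acts in the first steps of assembly, was the highest (38.2 and 34.1) and *SCO2*, a copper chaperone, the lowest (1.12 and 1.43).

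*FAM162A* had an FPKM of 47.2 and 48.5 (47.8 ± 0.868, SD, n = 2), rank 1224, the smallest relative difference between libraries among the members above 0. Its absolute log2 ratio of 0.04 was larger than that of 18.7% of the genes averaging 10 or more. ENST00000477892 took 84.4% and 79.1% of its FPKM. A difference appeared at the first exon, whose block of 124 nucleotides had a mean coverage of 538 in replicate 1 and 115 in replicate 2, while the third block had 1352 and 1287 and the fourth 1482 and 1483. The cause of this difference was not tested.

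The FPKM of *AK4* was 115 and 86.9 (101 ± 20.1, SD, n = 2), rank 495, and by summed FPKM it was the member whose libraries lay furthest apart. On its protein-coding transcripts alone, which made up 46.4% and 62.3% of the gene's FPKM, the values were 53.5 and 54.1, with no such gap. Its log2 ratio of -0.41 was larger in size than that of 92.8% of the protein-coding genes averaging an FPKM of 10 or more. The coverage of the whole gene did not show a gap of this size. *AK4* took 0.0526% and 0.0500% of all bases of coverage, a ratio of 0.951, against 0.753 for FPKM. Some of its 8 transcripts differed far more. ENST00000327299, protein coding, stood at 51.9 and 4.14, whereas ENST00000545314, also protein coding, stood at 1.07 and 49.6. ENST00000479060, of 867 nucleotides and without a defined coding region, had 46.4 and 20.4. A short transcript yields more FPKM per read than the protein-coding ones of 6836 and 6887 nucleotides, so the summed FPKM depends by construction on how reads are divided between them. The exon blocks that these transcripts share had like coverage in both libraries, for example 776 and 736 in the sixth block and 285 and 256 in the 6083-nucleotide last block. The values of ENST00000327299 and ENST00000545314 given above leave the transcript-level values of *AK4* uncertain. The leading transcript differed between libraries in 1 of the 5 members averaging an FPKM of 10 or more with at least 2 transcripts. This was close to the share of 18.8% among 5924 such protein-coding genes.

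**Figure D3:**
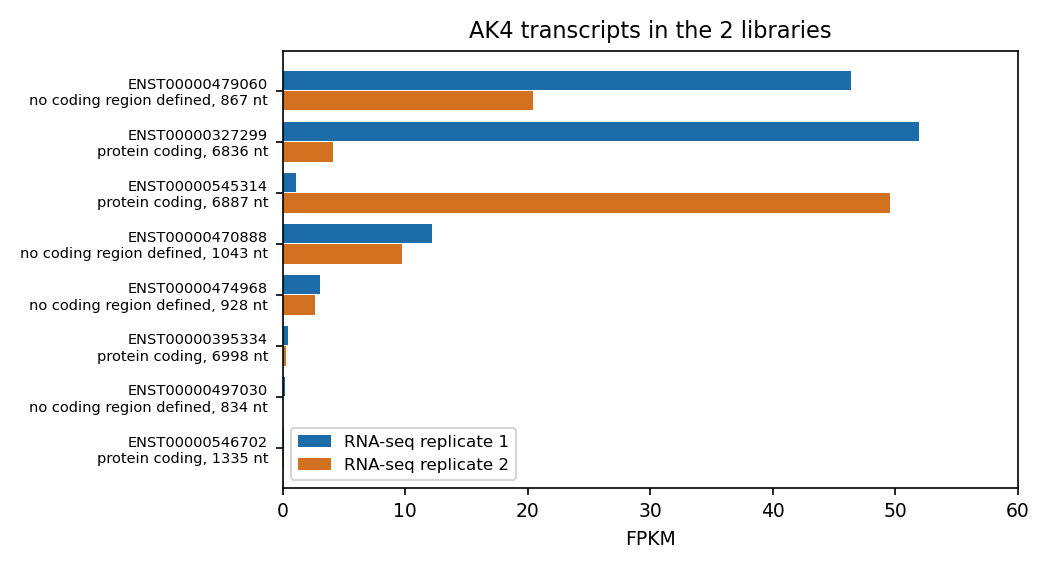
FPKM of the 8 annotated *AK4* transcripts in each RNA-seq library, with type and length in nucleotides. ENST00000327299 leads in replicate 1 (51.9) and ENST00000545314 in replicate 2 (49.6).

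Among the 8 adenylate kinase genes reported here, which encode enzymes that exchange phosphate between adenine or guanine nucleotides, *AK4* was the highest in both libraries and 5 reached an FPKM of 1. *AK3*, the other matrix enzyme, had 3.79 and 6.52.

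In the order of the members, no neighbours overlapped in the values of their libraries, but *COX4I1* and *AK4* were close: the lower *COX4I1* value was 118 and the higher *AK4* value 115. The order depended on the measure. By coverage per base of the longest transcript *COX4I1* had rank 2053, below *AK4* (715), *LONP1* (987), *FAM162A* (1039) and *HIGD2A* (1530) and above *HIGD1A* (2941). The longest annotated *COX4I1* transcript, with a retained intron, has 3946 nucleotides, whereas its leading transcript has 708. On the FPKM of the largest transcript alone *COX4I1* (85.9) and *AK4* (50.7) came first, and *LONP1* (23.4) lay below *FAM162A* (39.1) and *HIGD2A* (30.7). On protein-coding transcripts the order of the means was that of the summed FPKM, but *AK4* (53.8), *LONP1* (48.2) and *FAM162A* (47.8) lay close together, and the values of *LONP1* (47.6 and 48.7) and *FAM162A* (47.2 and 48.5) overlapped. The protein-coding genes nearest to the members in log2(FPKM + 1) over the 2 libraries, by Euclidean distance, were *EIF3L* for *COX4I1* (distance 0.03), *TUBA1A* for *AK4* (0.07), *KARS1* for *LONP1* (0.01), *EPB41L2* for *FAM162A* (0.01), *PBDC1* for *HIGD2A* (0.01), *CDC42EP3* for *HIGD1A* (0.01) and *KBTBD3* for *NDUFA4L2* (0.01). *EIF3L*, a subunit of a translation initiation factor, had 126 and 117. With only 2 samples this likeness is one of level.

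For HIF1α binding, a gene was counted when a peak overlapped, by at least 1 bp, the window of 1 kb on either side of any of its annotated start sites. *LONP1*, *FAM162A* and *AK4* had such a promoter peak in replicate 1, that is 3 of the 8 members, beside 5.49% of 19658 protein-coding genes and 8.68% of the 11567 that were expressed in both libraries. In replicate 2, *COX4I1* and *HIGD2A* were added, giving 5 members, beside 14% of protein-coding genes and 20.2% of expressed ones. The 3 genes of replicate 1 were those with a promoter peak in both replicates, beside 1.79% of protein-coding and 2.91% of expressed genes. Replicate 2 alone gave 5. Known hypoxia-responsive genes are among the members by choice, and their count was not tested against these shares. *COX4I2*, *NDUFA4L2* and *HIGD1A* had no promoter peak in either replicate.

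**Figure D4:**
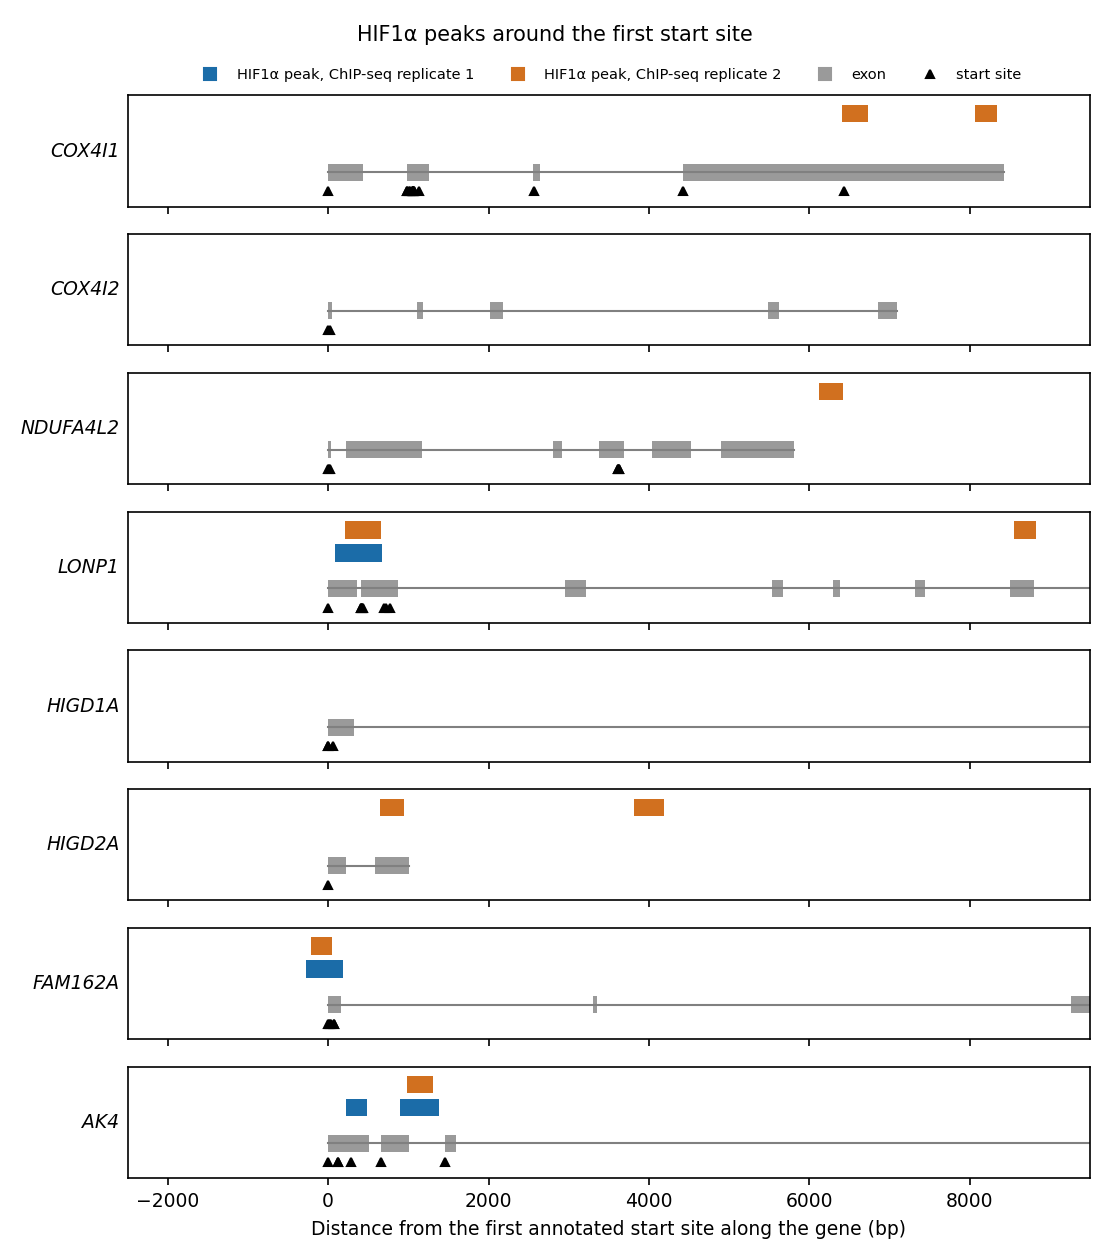
HIF1α peaks of ChIP-seq replicate 1 and replicate 2 around the first annotated start site of each member, in bp along the gene, with exons and start sites. At *LONP1*, *FAM162A* and *AK4* the replicates overlap near start sites, and the other peaks come from replicate 2, except the first *AK4* peak. Peaks at the far ends of *HIGD1A* and *AK4* lie outside the plotted range.

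At *FAM162A*, the peaks of both replicates overlapped a start site. The replicate 1 peak (chr3:122102729-122103190, hg19) was centred 49 bp upstream of an annotated start site and the replicate 2 peak (chr3:122102797-122103060) 80 bp upstream. Each held 4 cores, all of them upstream of the RefSeq start site, at positions -92, -84, -75 and -36 from it, and the core nearest the centre lay 3 bp from it in replicate 1 and 11 bp in replicate 2. The start site of *MIX23*, on the opposite strand (FPKM of 28.4 and 32.0), lay at a distance of 881 bp from the first of these centres, so position alone does not assign the peak to a single gene.

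At *LONP1*, the replicate 1 peak (chr19:5719906-5720497) was centred 25 bp upstream of a start site and the replicate 2 peak (chr19:5719924-5720377) 4 bp downstream of another. LONP1 exons covered 91.0% and 88.3% of their bases. Each held 6 cores, and in replicate 1 the nearest was 2 bp from the centre, in the CACGTG of the stretch printed above. *CATSPERD*, a sperm ion channel subunit gene, has a start site 447 bp from the same centre and was listed at 0 in both libraries. A further replicate 2 peak (chr19:5711753-5712022) lay over a *LONP1* exon, where 89.3% of its bases were exonic.

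*AK4* had 2 promoter peaks in replicate 1. The first (chr1:65613452-65613711) lay wholly in exons, had 3 cores and was not met by a replicate 2 peak. The second (chr1:65614131-65614611) was mostly intronic, with 21.8% exon bases, and overlapped the replicate 2 peak (chr1:65614210-65614534, 8% exon bases). The centres of this pair, 65614371 and 65614372, were a base apart, 314 and 313 bp upstream of a start site, and the ACGTG in the middle of the printed stretch lay 9 and 10 bp from them. Replicate 2 had 2 more peaks at *AK4*, of 4520 and 987 bp, both wholly within its last exon and at least 60214 bp from any start site.

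The peaks of replicate 2 at the other members lay in exons. At *COX4I1*, a peak (chr16:85838652-85838973) overlapped an internal start site and another (chr16:85840307-85840576) lay near the end of the gene, while the nearest replicate 1 peak was 283607 bp away. With the first start site alone, *COX4I1* no longer counted. At *HIGD2A*, the peak chr5:175816393-175816693 was centred 791 bp downstream of the start site and left the count with a window of 500 bp. A start site of *NOP16* (FPKM of 14.7 and 15.5), on the opposite strand, was nearer to this centre, at 615 bp. A further peak assigned to *HIGD2A* (chr5:175819568-175819940) held 2 cores. It lay 3816 bp from the start site and wholly in exons of another gene. At *HIGD1A*, the peak chr3:42825888-42826784 lay 19141 bp from the nearest start site, in the last exon. Near *NDUFA4L2*, the peak chr12:57628079-57628379 lay in an exon of the neighbouring *SHMT2*, a folate enzyme gene with an FPKM of 76.9 and 78.4, 2489 bp from a start site of *NDUFA4L2*. For *COX4I2* the nearest peaks were 29194 bp away in replicate 1 and 26596 bp in replicate 2. In all, 8 of the 12 replicate 2 peaks at or near the members had every base in an exon, a feature of the whole list: 64.5% of all replicate 2 peaks did, against 11.7% in replicate 1. Of replicate 1 peaks 20.4% overlapped a replicate 2 peak, and of replicate 2 peaks 1.96% overlapped a replicate 1 peak. Whether the exon-bound peaks mark HIF1α binding was not tested.

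All 4 member promoter peaks of replicate 1 held an ACGTG or GCGTG, 16 cores in all, as did 96.0% of the 1045 promoter peaks of that list, and each had a core within 100 bp of its centre, as did 92.3%. In replicate 2 the shares over 5880 promoter peaks were 55.0% and 30.7%. The nearest core lay 2, 3, 9 and 19 bp from the peak centre at *LONP1*, *FAM162A*, the second *AK4* peak and the first, and the median over the replicate 1 promoter peaks with a core was 18 bp. The replicate 2 peak of *COX4I1* had a core 54 bp from its centre and that of *HIGD2A* had none.

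**Figure D5:**
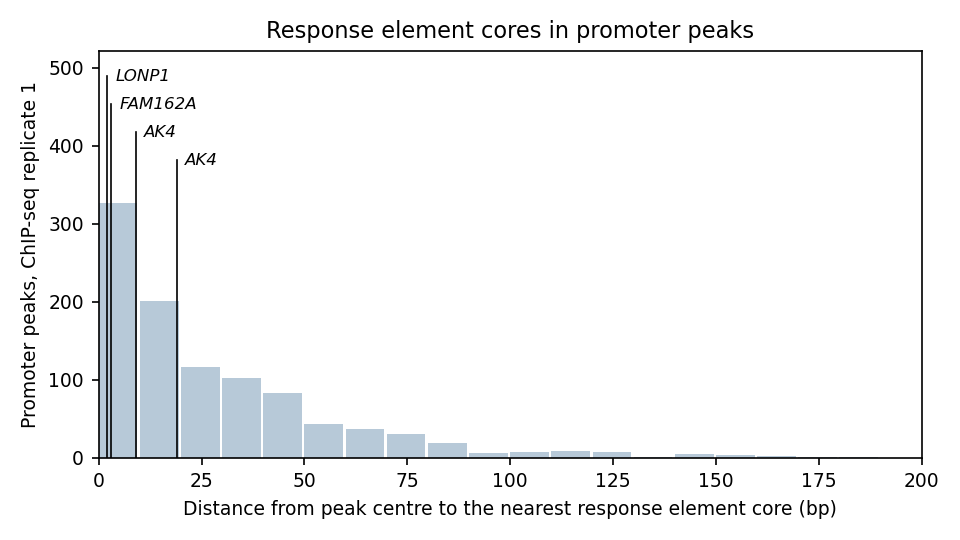
Distance in bp from the centre of a promoter peak of ChIP-seq replicate 1 to the nearest ACGTG or GCGTG, as the number of peaks in each bin of 10 bp, for distances under 200 bp. Vertical lines mark the 4 peaks at members, at 2, 3, 9 and 19 bp, and their heights only set the labels apart.

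Cores were also sought in RefSeq promoters (GRCh38.p14, 250 bases before to 50 after the start), where 6 members had an entry and *COX4I2* and *NDUFA4L2* had none. Of all 35116 such promoters, 48.4% held an ACGTG or GCGTG and 7.87% held at least 3. *HIGD1A* had 3 cores, at -179, -78 and -74 from the start, and *HIGD2A* had 2, at -182 and -133, and the nearest replicate 1 peaks were 1190421 and 22778 bp from the start sites of these genes. *COX4I1* had none in this window. Of the *LONP1* entries, that nearer the peak centres held 5 cores and the other 1, and the 4 *AK4* entries held 1 to 3. CCGGAA, the core bound by ETS factors such as GABP, a known regulator of complex IV genes, was also sought on both strands and was in 17.2% of all promoters. *COX4I1* had 3 matches, at -159, -133 and 3 from the start, *LONP1* had 2 and *HIGD2A* 2 that overlap as a palindrome, and *FAM162A*, *HIGD1A* and *AK4* had none. A start site of *EMC8* (FPKM of 23.4 and 22.8) lay 4 bp from a start site of *COX4I1*. A start site of *NOP16* lay 11 bp from that of *HIGD2A*, and both neighbours are on the opposite strand. Position alone thus does not assign the matches at *COX4I1* and *HIGD2A* to a single gene. A match describes the letters and does not show that a factor binds there.

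Genes of the same pathways provide the setting for these counts. Of 10 HIF1 reference targets, all of which reached an FPKM of 1, 7 carried a promoter peak in the first ChIP-seq list, 6 in the second and 5 in both (*ANKRD37*, *P4HA1*, *PDK1*, *SLC2A1* and *VEGFA*). Their levels ran from *NDRG1* (211 and 209) to *EGLN3* (5.80 and 4.97), a range that also holds the 6 expressed members, with or without a peak. Of the 16 complex IV subunit genes other than members, 1 carried one in the first list (*COX6A2*), 1 in the second (*COX7C*) and 0 in both. Of the 25 other assembly genes, *COX20* had one in both replicates, *PET117* in replicate 1 alone, and *COX11* and *COA3* in replicate 2 alone. Among the 15 proteases other than *LONP1*, *IMMP2L* had one in replicate 1 and *SPG7* in replicate 2. Of the 7 other adenylate kinase genes reported here, 0 had a promoter peak in either replicate. Of the genes fixed as *COX4I2* regulators, *RBPJ* had one in both replicates and *CXXC5* in replicate 2.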

How the data were processed

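The authors mapped the RNA-seq reads with HISAT2 and deposited TPM, FPKM and coverage for each transcript, estimated with StringTie 1.3.3 on GENCODE 27 per the file headers. The tables hold no counts. Their coordinates are those of GRCh38, although the methods name hg19, so peaks and expression were joined by Ensembl identifier. For ChIP-seq, the authors aligned reads to hg19 with Bowtie2 and deposited 1 MACS2 peak list per replicate, giving positions and no score. Depth behind the lists is unknown. Peaks were compared with GENCODE 44 on GRCh37. Here FPKM was summed per gene, ratios used a pseudocount of 0.1, and coverage of exon blocks was summed over transcripts. With 1 treatment there was no test, and an SD over 2 libraries is imprecise.

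The members and lists were chosen with earlier results of these data known, and 2 list genes are not reported here and were left out of the counts of their lists. Genes named were members, *NDUFA4*, list genes, genes with a start site within 1 kb of a member's or within 10 kb of the centre of a peak at a member, and the gene nearest to each member in level. Alternatives covered unit, transcripts, pseudocount, thresholds, windows, start sites, core and left-out replicates. Core counting and overlaps were tested on simulated data. Python 3.11.15, numpy 2.4.6, pandas 2.3.3, pysam 0.24.0 and matplotlib 3.10.9 were used.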

Additional observations from a re-analysis of the deposited data

How the results depend on the processing

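Of 51 alternative values for the main results, 9 moved by more than the SD of the replicates or by more than 1.5 times the count, and neither log2 ratio changed sign under the alternatives run for it. Some of the others could not have moved and show no stability: the *COX4I2* share is 0 under each setting because the gene is listed at 0, and a ratio with either of 2 libraries left out always stays within their SD. The log2 ratio of *NDUFA4L2* to *NDUFA4* was -5.95 by coverage per base of the longest transcript, -6.28 on the largest transcript and -6.05 on protein-coding transcripts. It was -4.44 with a pseudocount of 1, which by construction shrinks the ratio of a low gene. For *HIGD1A* to *HIGD2A* the same settings gave -0.84, -1.35, -0.82 and -0.74. The shift to -1.35 follows from the construction, since *HIGD2A* has a single transcript and *HIGD1A* several. So does the shift to -0.82, as protein-coding transcripts made up 96.3% and 95.5% of the *HIGD1A* FPKM and 100% for *HIGD2A*. The shifts of *NDUFA4L2* on these settings likewise come from counting part of each gene's FPKM, and a pseudocount of 1 shrinks this ratio too. For *HIGD1A* to *HIGD2A* the shift by coverage per base also follows from the construction. Coverage of all transcripts is there divided by the length of the longest, which lowers *HIGD1A* with several transcripts against *HIGD2A* with a single one. The cause of the shift by coverage per base for *NDUFA4L2* to *NDUFA4* was not tested. The order of the members in level did depend on the measure: by coverage per base of the longest transcript *COX4I1* ranked below 4 other members, and on the largest transcript *LONP1* fell below *FAM162A* and *HIGD2A*. Leaving out either RNA-seq library gave -5.78 to -5.45 and -0.78 to -0.75. The count of members with a promoter peak in both ChIP-seq replicates ran from 3 to 5 when a replicate was left out, by construction, and was 3 under each window and start site choice. A stricter peak threshold was not run, since the lists hold no score. No paired analysis was possible because no result comes from a test between groups. Depth limits *NDUFA4L2*, whose coverage was at most 2.05 reads per base in any exon block, and the listed 0 of *COX4I2* has no known floor.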
